A study of Mus musculus with 18 samples.

Results

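The genes described here are the 7 members of Hox paralog groups 9 and 10 named Hoxa9, Hoxb9, Hoxc9, Hoxd9, Hoxa10, Hoxc10 and Hoxd10, out of 39 Hox genes and 21900 protein-coding genes in the RefSeq table of GRCm38.p6, the assembly that mm10 stands for. They were taken by name, and no measured value chose them. For each gene the span between its annotated ends was extended by 1 kb on either side, and the part of this span under peaks of H3K27me3 was read from 12 deposited peak lists, each from a single headfold at embryonic day 8.5. All embryos were Gulo-/-, and so without the last enzyme of vitamin C synthesis, which leaves the dam's drinking water as the labelled source of the vitamin. The groups were B6 without vitamin C, B6 with vitamin C (3.3 g/l), 129 without vitamin C and 129 with vitamin C (3.3 g/l), with 3 lists each from 2 female embryos and 1 male embryo. The series' design text writes the 129 line as 129S6.B6-Gulo-/-. No Gulo wild-type group is among these lists, all embryos of the B6 group with vitamin C came from 1 timed pregnancy by their code, and the library numbers were split by background, so library batch and background cannot be told apart.

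Hox genes encode homeodomain transcription factors that give cells their position along the head-to-tail axis. They lie in 4 clusters, and their order along a cluster follows the place where each gene is used, with groups 9 and 10 acting in the trunk, the lumbar region and the limbs and not in the head. Where a Hox gene is not in use, Polycomb repressive complex 2 adds trimethyl groups to lysine 27 of histone H3 (H3K27me3) over it. Mammals have no group 10 gene in the Hoxb cluster. CUT&Tag cuts the DNA around an antibody-bound mark with a tethered transposase, and SEACR, the peak caller named in the submitters' processing notes, turns the resulting signal into peaks.

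The lists held 748 to 4726 peaks over 3.58 to 31.7 Mb, and their median peak width was 1322 to 8449 bp. Sequencing depth is unknown. Lists from B6 without vitamin C replicate 2 (748 peaks) and 129 without vitamin C replicate 2 (1388 peaks) were the shortest, and those of B6 without vitamin C replicate 1 and B6 with vitamin C replicate 2 had median widths of 1322 and 1410 bp. Peak lists measure no RNA, so the headfold label could be read only by which genes lay outside the mark. Of 6 genes of the anterior head, Hesx1 lay under a peak in 0 lists, Sox2 in 2 and Otx2 in 3, whereas Six3 did in 11 and Rax and Lhx2 in 12. Of 6 housekeeping genes, 5 lay under a peak in 0 lists and Actb in 1. Only 3460 of the 21900 protein-coding genes had a peak in at least 2 lists. A low count was thus common and does not mark out head or housekeeping genes.

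All 7 genes carried H3K27me3 in nearly every headfold. Of the 7, 6 had a peak in all 12 lists, against 2.18% of all protein-coding genes, and 7 of 7 had one in at least 10 lists, against 5.93%. The exception was Hoxd9, with a peak in 11 lists and none in 129 without vitamin C replicate 2. Without the added 1 kb, Hoxa9 too had a peak in only 11 lists. Its peak in B6 without vitamin C replicate 1 lay in the added 1 kb and did not reach the gene itself. Peaks covered the whole extended span in at least 6 lists for 6 of the 7, against 1.11% of all protein-coding genes, a share not matched for span length. Over genes and lists, 48 of 84 values were complete cover (57.1%) and 1 was 0. Genes of one cluster lie within the same peaks in many lists, so the 7 are not independent readings.

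**Figure D1:**
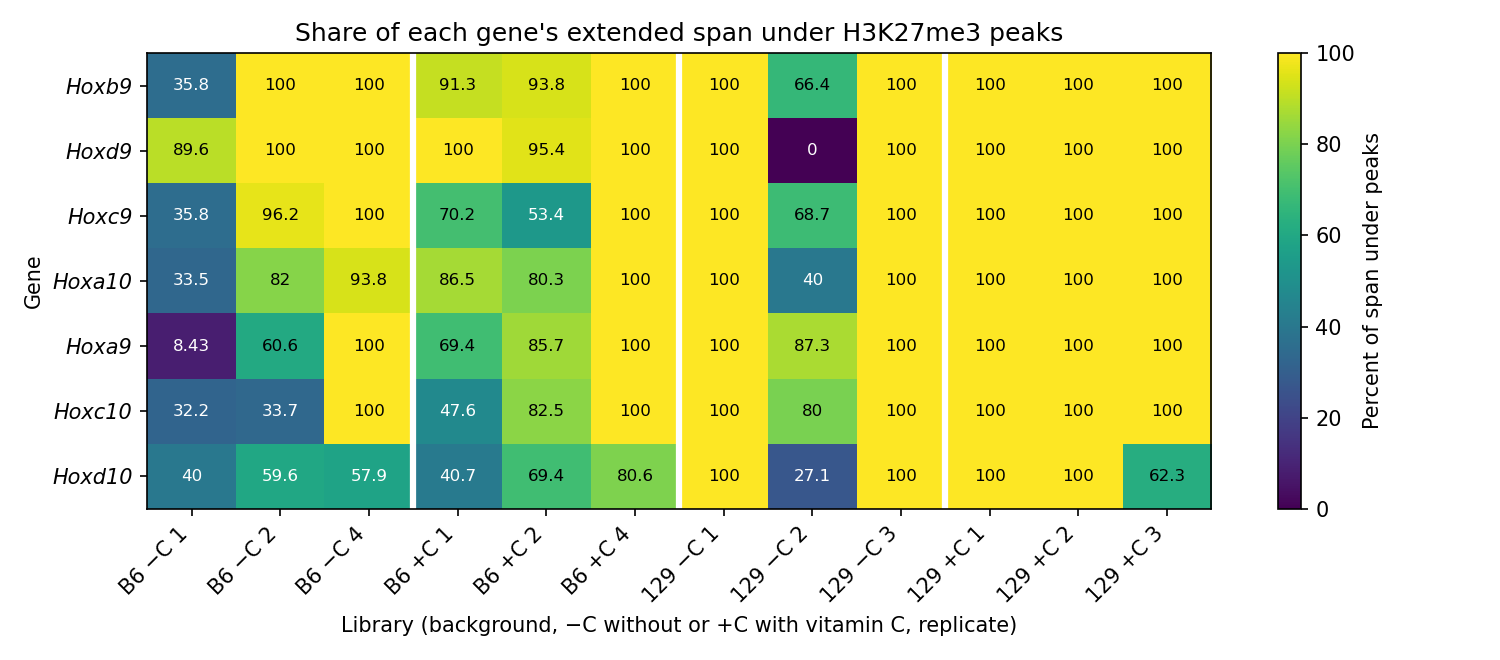
Percent of each extended gene span under H3K27me3 peaks (colour and printed value) for the 7 genes (rows, by falling mean) in the 12 libraries (columns, where −C is without and +C with vitamin C). Of the 84 cells 48 are at 100, and the low cells gather in B6 −C 1, B6 −C 2, B6 +C 1, B6 +C 2 and 129 −C 2.

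By mean cover over the 12 lists, Hoxb9 stood first at 90.6 ± 19.8% (SD, n = 12), followed by Hoxd9 at 90.4 ± 28.6%, Hoxc9 at 85.3 ± 22.6%, Hoxa10 at 84.7 ± 23.6%, Hoxa9 at 84.3 ± 27.4%, Hoxc10 at 81.3 ± 27.4% and Hoxd10 at 69.8 ± 26.3%. No neighbouring pair in this order differed on average by more than the SD of its paired difference, which is no test of the order. The widest step, Hoxc10 against Hoxd10, was 11.5 ± 22.8 points (SD of the paired difference over 12 lists), with Hoxc10 above in 6 lists, below in 2 and equal in 4. The group 9 genes were wholly covered in 7 to 9 lists and the group 10 genes in 4 to 7. The extended spans ran from 4446 bp (Hoxd9) to 12834 bp (Hoxd10). Complete cover asks more of a longer span, and these counts were not matched for length.

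Hoxa9 (chromosome 6, 52223097 to 52227370), which acts in posterior patterning and in blood stem cells, was 8.43, 60.6 and 100% covered in B6 without vitamin C and 69.4, 85.7 and 100% in B6 with vitamin C. In 129 it was 100, 87.3 and 100% covered without vitamin C and 100% in each list with vitamin C. The lowest value of all 84 other than the single 0 was its 8.43% in B6 without vitamin C replicate 1. All groups of Hoxa9 overlapped at complete cover.

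Hoxb9 (chromosome 11, 96271330 to 96276595), which helps to shape the ribs and thoracic skeleton, was 35.8, 100 and 100% covered in B6 without vitamin C and 91.3, 93.8 and 100% in B6 with vitamin C. In 129 it was 100, 66.4 and 100% covered without vitamin C and 100% in the 3 lists with vitamin C. Its 2 lowest values thus came from 1 list of each background without vitamin C.

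Hoxc9 (chromosome 15, 102977032 to 102984444), which sets the thoracic identity of motor neurons in the spinal cord, was 35.8, 96.2 and 100% covered in B6 without vitamin C and 70.2, 53.4 and 100% in B6 with vitamin C. In 129 the values were 100, 68.7 and 100% without vitamin C and 100% in the 3 lists with vitamin C. In B6 the ranges of the diets overlapped over most of their length.

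Hoxd9 (chromosome 2, 74697763 to 74700208), which acts in the limb bud and lumbosacral cord, was 89.6, 100 and 100% covered in B6 without vitamin C and 100, 95.4 and 100% in B6 with vitamin C. In 129 it was 100, 0 and 100% covered without vitamin C and 100% in the 3 lists with vitamin C. Its spread over the lists was therefore almost wholly the value of 0 in 129 without vitamin C replicate 2, and apart from it the gene never fell under 89.6%.

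Hoxa10 (chromosome 6, 52231197 to 52240854), one of the group that suppresses rib formation in the lumbar vertebrae, was 33.5, 82.0 and 93.8% covered in B6 without vitamin C and 86.5, 80.3 and 100% in B6 with vitamin C. In 129 it was 100, 39.96 and 100% covered without vitamin C and 100% in each list with vitamin C.

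Hoxc10 (chromosome 15, 102966796 to 102971898), a gene of the lumbar cord and hindlimb, was 32.2, 33.7 and 100% covered in B6 without vitamin C and 47.6, 82.5 and 100% in B6 with vitamin C. In 129 the values were 100, 80.0 and 100% without vitamin C and 100% in the 3 lists with vitamin C.

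Hoxd10 (chromosome 2, 74684273 to 74695106), which patterns the limb and lumbar motor neurons, was 40.03, 59.6 and 57.9% covered in B6 without vitamin C and 40.7, 69.4 and 80.6% in B6 with vitamin C. In 129 it was 100, 27.1 and 100% covered without vitamin C and 100, 100 and 62.3% with vitamin C. Hoxd10 was the only one of the 7 that was wholly covered in no list of B6.

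The mean of Hoxd10 depended on where its annotated span begins. The RefSeq span overlaps that of Hoxd11 and runs for 7.62 kb ahead of the transcript start that follows the gene's promoter window in the RefSeq promoter table (plus strand, 74691891). Measured from that start, an alternative chosen after the values were seen, Hoxd10 was 81.8 ± 30.6% covered (SD, n = 12), wholly in 5 lists and not at all in 129 without vitamin C replicate 2. The stretch of the span under peaks in the fewest lists, 500 bp at chromosome 2, 74690301 to 74690800, lay 1091 to 1590 bp ahead of this start. It was covered in 4 lists, of which 0 of 6 were B6 and 4 of 6 were 129. This stretch was picked for its low count, and its split by background was not tested. By contrast the 250 bases directly before the start lay wholly under peaks in 11 lists. In 4 B6 lists, of 8 lists with a peak that began inside the span, a peak began within the same 86 bp, at 74691076 to 74691162. This was 729 to 815 bp ahead of the start, and the place was picked as the one shared by the most lists.

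The promoter windows of the table run from 250 bases before to 50 after a start, and 4 of the 7 genes have one, with 5 windows in all. Those of Hoxd10, Hoxa9 and the inner start of Hoxa10 are shown because they lie under the mark in nearly all lists yet differ widely in CpG content. Only the 250 upstream bases are printed, 5′ to 3′ on the gene's strand, from RefSeq (GRCm38.p6), with each CG dinucleotide in capitals.
Hoxd10, plus strand, chr2:74691641-74691890: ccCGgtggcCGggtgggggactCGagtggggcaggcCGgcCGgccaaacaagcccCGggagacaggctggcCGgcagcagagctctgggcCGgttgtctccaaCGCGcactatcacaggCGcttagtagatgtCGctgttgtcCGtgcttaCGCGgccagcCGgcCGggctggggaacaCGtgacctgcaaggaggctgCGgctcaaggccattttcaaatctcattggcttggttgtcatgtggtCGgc
Hoxa10, inner start, minus strand, chr6:52234940-52235189: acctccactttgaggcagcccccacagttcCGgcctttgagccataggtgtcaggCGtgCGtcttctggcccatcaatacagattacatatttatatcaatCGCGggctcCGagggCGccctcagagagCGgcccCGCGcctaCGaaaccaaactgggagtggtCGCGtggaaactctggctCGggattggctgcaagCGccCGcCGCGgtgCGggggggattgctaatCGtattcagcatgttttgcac
Hoxa9, minus strand, chr6:52227371-52227620: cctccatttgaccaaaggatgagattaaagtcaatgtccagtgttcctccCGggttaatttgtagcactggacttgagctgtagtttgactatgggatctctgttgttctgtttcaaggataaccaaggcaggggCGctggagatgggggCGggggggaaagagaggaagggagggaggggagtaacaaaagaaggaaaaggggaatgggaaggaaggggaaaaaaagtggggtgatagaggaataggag
The Hoxd10 window of 300 bases held 22 CG dinucleotides and the inner Hoxa10 window 21, against a median of 7 over all 32851 windows and of 19 over the 866 windows under a peak in at least 10 lists. The Hoxd9 window held 20, the outer Hoxa10 window 12 and the Hoxa9 window 4. CG reads the same on either strand, and 94.6% of all windows held at least 1. The inner Hoxa10 window lay wholly under peaks in 12 lists, those of Hoxd10 and Hoxd9 in 11, the outer Hoxa10 window in 10 and the Hoxa9 window in 9. The Hoxa9 window, with the fewest CG dinucleotides of the 5, was thus also wholly under peaks in the fewest lists, though the 5 are too few and too close together for a relation to be read.

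The number of lists with a peak varied along each span. Of the Hoxd9 span 97.7% lay under peaks in at least 10 lists, and 91.5% of Hoxb9, 83.9% of Hoxc9, 78.4% of Hoxa10, 71.0% of Hoxa9, 45.7% of Hoxc10 and 39.1% of Hoxd10 did. Peaks were present in all 12 lists over 30.2% of the Hoxa10 span, 29.6% of Hoxb9, 28.6% of Hoxc10 and 2.15% of Hoxc9, and over 0% of Hoxa9, Hoxd9 and Hoxd10. The thinnest place in Hoxa10 was 100 bp at 52239001 to 52239100, under peaks in 1 of 6 lists of B6 and 5 of 6 of 129. In Hoxc10 it was 1300 bp at 102968301 to 102969600, under peaks in 3 of 6 lists of B6 and 5 of 6 of 129. The thinnest places of Hoxb9 and Hoxd9 were each under peaks in 4 of 6 lists of B6 and 5 of 6 of 129. For Hoxa9 and Hoxc9 the counts were 3 of 6 and 6 of 6. All these places were picked for their low count, and the lists over that of Hoxa10 were those with peaks over 50 kb wide over all 7 genes.

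Peak edges inside the group 10 spans fell at nearly the same base in several embryos at certain places. These places were searched for, as those where the most lists had an edge within 100 bp. Only places shared by at least 3 lists were kept. How often such sharing arises by chance was not tested. In 4 of the 5 lists with a peak that ended inside the Hoxc10 span, the end lay within 64 bp (102968189 to 102968253), directly before the thin stretch of that gene. These lists were B6 without vitamin C replicates 1 and 2, B6 with vitamin C replicate 1 and 129 without vitamin C replicate 2. In Hoxa10 this held for 3 of 6 such lists within 26 bp (52231119 to 52231145), and in Hoxd10 for 3 of 8 within 27 bp (74688395 to 74688422). At these picked places the edges came from headfolds of different diets and, for Hoxc10 and Hoxa10, of both backgrounds.

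**Figure D2:**
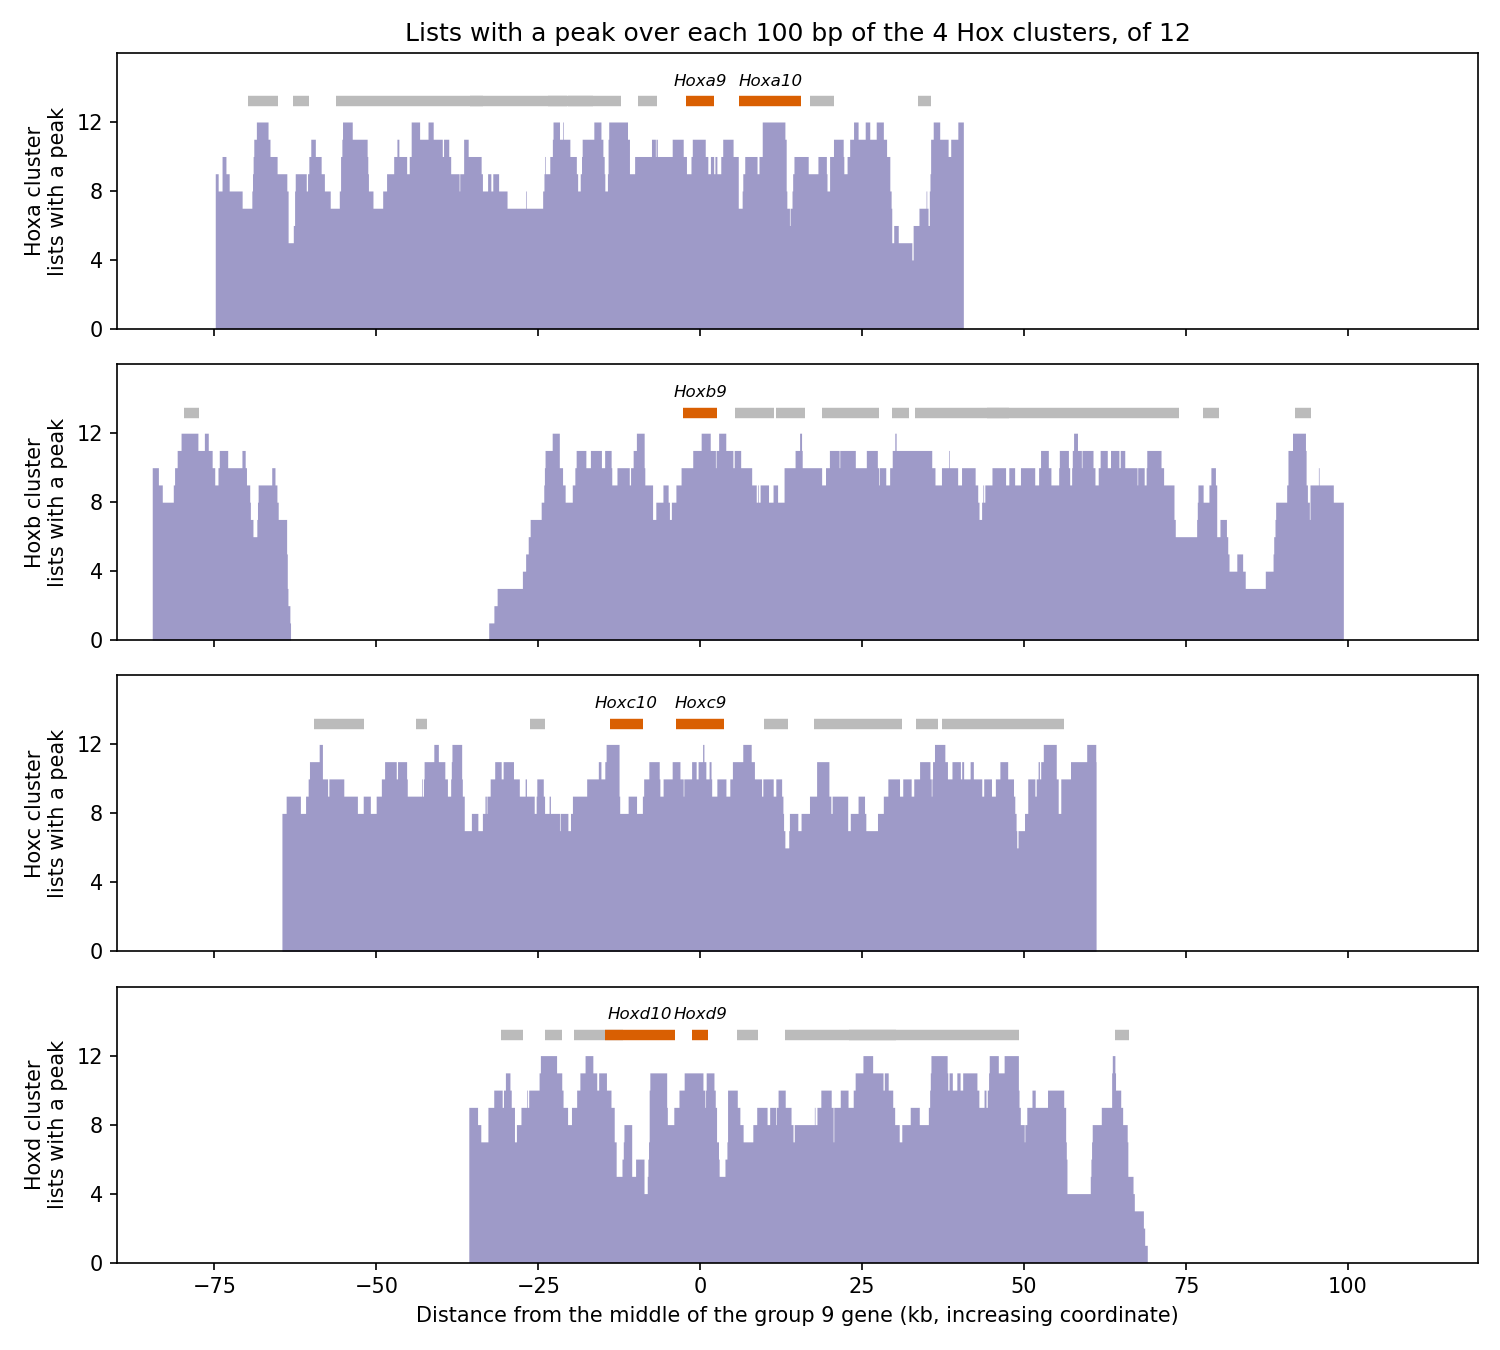
Number of the 12 lists with a peak over at least 50% of each 100 bp bin (filled area) along the Hoxa, Hoxb, Hoxc and Hoxd clusters, against the distance in kb from the middle of the group 9 gene. Bars above mark the 7 genes (orange) and the other Hox genes (grey), and the area falls to 4 lists inside the Hoxd10 span.

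The peaks over the 7 genes differed in form between lists. In 6 lists, those of 129 other than 129 without vitamin C replicate 2, and B6 with vitamin C replicate 4, the peak of largest total signal over each gene was over 50 kb wide. There were 4 distinct peaks for the 7 genes in each of these lists, 1 for each cluster, and they were 57.5 to 172.3 kb wide. Between the first and the last Hox gene of a cluster, they took in 93.4 to 100% of Hoxc, 90.3 to 100% of Hoxa and 62.2 to 73.0% of Hoxb. The peak over Hoxd9 and Hoxd10 took in 100% of Hoxd in 3 of the lists, 66.9% in 129 with vitamin C replicate 3, 66.6% in B6 with vitamin C replicate 4 and 34.7% in 129 with vitamin C replicate 2. In B6 without vitamin C replicate 4, the peak over Hoxb9 was 67.4 kb wide and those over the other 6 genes were 10.7 to 37.9 kb. In the other 5 lists the widths were 1.504 to 15.5 kb, and 5 to 7 distinct peaks of largest total signal stood over the genes they covered. The broad form was thus found in 1 of 6 lists of B6 and 5 of 6 of 129, and the background difference in cover given further on rests on the same lists. The 6 lists of broad form were also those whose peaks covered most of the genome, 17.8 to 31.7 Mb, against 3.58 to 15.0 Mb in the others. The part of this in the form of the Hox peaks was not tested.

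**Figure D3:**
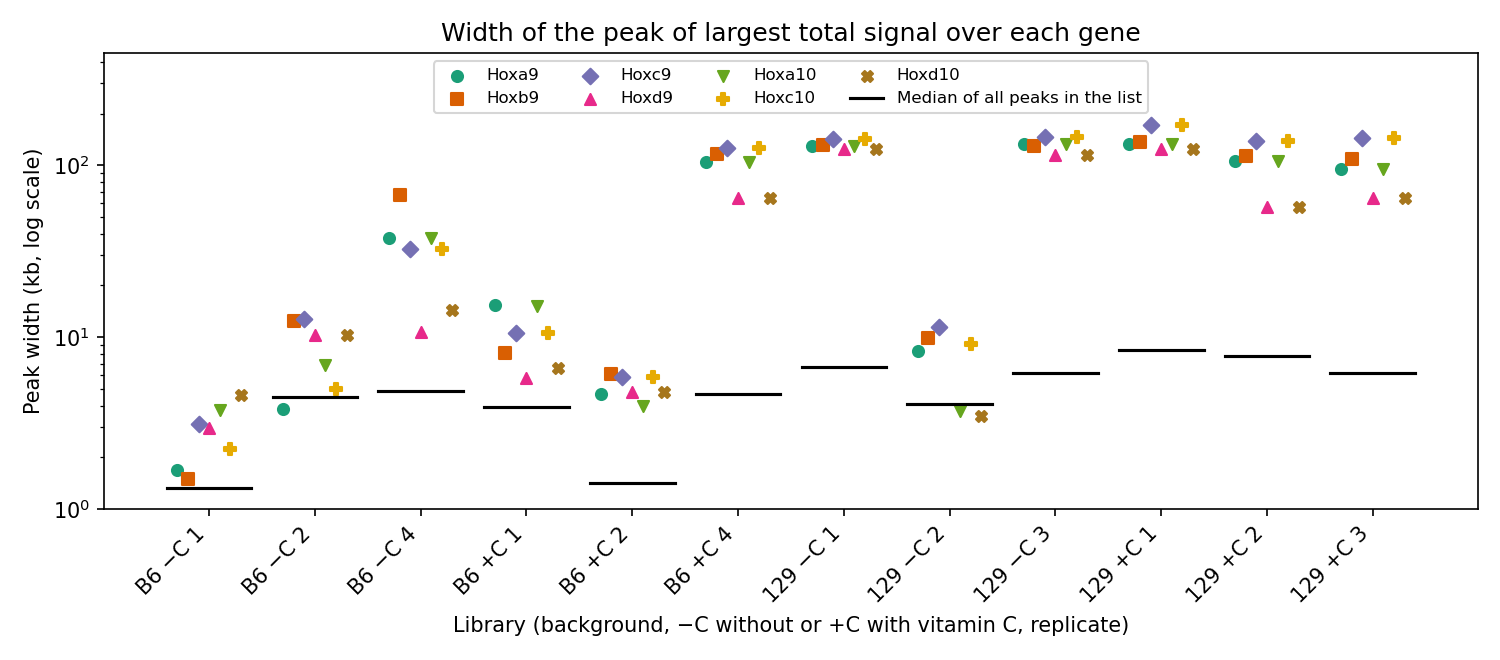
Width in kb (log axis) of the peak of largest total signal over each of the 7 genes (symbols) in each library, with the median width of all peaks in that library's list (black line). Widths exceed 50 kb for all 7 genes in 6 libraries, and in 129 −C 2, B6 −C 1, B6 −C 2, B6 +C 1 and B6 +C 2 they lie between 1.504 and 15.5 kb.

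By total signal, which grows with width, these peaks ranked near the top of their own list. The median percentile over lists was 99.7 for Hoxb9, 99.6 for Hoxa9 and Hoxa10, 99.5 for Hoxc9 and Hoxc10, 99.2 for Hoxd9 and 97.9 for Hoxd10. By signal per bp, which does not grow with width, the medians were lower, from 79.7 for Hoxb9 to 86.3 for Hoxa10. In 129 with vitamin C replicate 3 the peak over Hoxc9 and Hoxc10 had the largest total signal of its whole list. The lowest rank by total signal was the 6.48th percentile for Hoxd10 in 129 without vitamin C replicate 2. Signal was not compared between lists, since no common scaling is known.

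The point of highest signal in these peaks lay outside the gene's own extended span in most lists. It fell inside that span in 5 of 11 lists for Hoxd9, 4 of 12 for Hoxa10 and Hoxc10, 3 of 12 for Hoxb9 and Hoxd10, 2 of 12 for Hoxa9 and 1 of 12 for Hoxc9. In some lists the point lay in the span of another of the 7 genes. A peak far wider than a span has most of its length outside it, so low counts follow in part from width. In 6 lists the highest point of the peak over Hoxa9 lay within the same 636 bp (chromosome 6, 52221271 to 52221907), 1190 bp beyond the 3′ end of the gene, and 5 of these lists were of B6. In 4 lists the highest point of the peak over Hoxc9 lay within 44 bp (chromosome 15, 102920767 to 102920811), 56.2 kb from the gene and 320 bp from Hoxc13. For Hoxb9 it lay in 4 lists within 217 bp (chromosome 11, 96294751 to 96294968) inside the span of Hoxb6, 18.2 kb away. These 3 places were picked as those shared by the most lists.

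MicroRNA genes of the miR-196 family lie beside these genes and also lay under peaks. This family represses Hox messages. Mir196b lies 2.71 kb from Hoxa9 and 1.03 kb from Hoxa10, Mir196a-2 lies 3.60 kb from Hoxc9 and 1.45 kb from Hoxc10, and Mir196a-1 lies 6.07 kb from Hoxb9. The mature 5p forms are shown because both carry the same seed (bases 2 to 8, in capitals), written 5′ to 3′ from RefSeq (GRCm38.p6).
miR-196a-5p: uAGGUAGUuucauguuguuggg
miR-196b-5p: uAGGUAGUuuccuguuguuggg
They match at 21 of 22 positions, and no other mature miRNA among the 1738 entries of the table has this seed. The hairpin of Mir196a-1 lay under a peak in 12 lists, and those of Mir196a-2 and Mir196b in 11, with B6 without vitamin C replicate 2 as the exception for both. Of the 12 noncoding genes of the Hox clusters in the list read here, 11 were matched, all 11 had a peak in at least 10 lists, against 3.03% of all 13959 lncRNA and miRNA genes, and 8 had one in all 12, against 1.3%, among them Hotair, Hottip and Haglr.

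The gene means of groups 9 and 10 lay within the range of the other Hox genes. Mean cover over genes and lists was 83.8% for groups 9 and 10, against 81.1% for groups 1 to 5, 79.7% for groups 6 to 8 and 81.2% for groups 11 to 13. Among all 39 Hox genes by mean cover, Hoxb9 was in place 3, Hoxd9 in 4, Hoxc9 in 12, Hoxa10 in 13, Hoxa9 in 15, Hoxc10 in 21 and Hoxd10 in 36. The first 2 places were held by Hoxb13 (97.1%) and Hoxd12 (92.1%), and the last by Hoxa13 (65.8%).

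**Figure D4:**
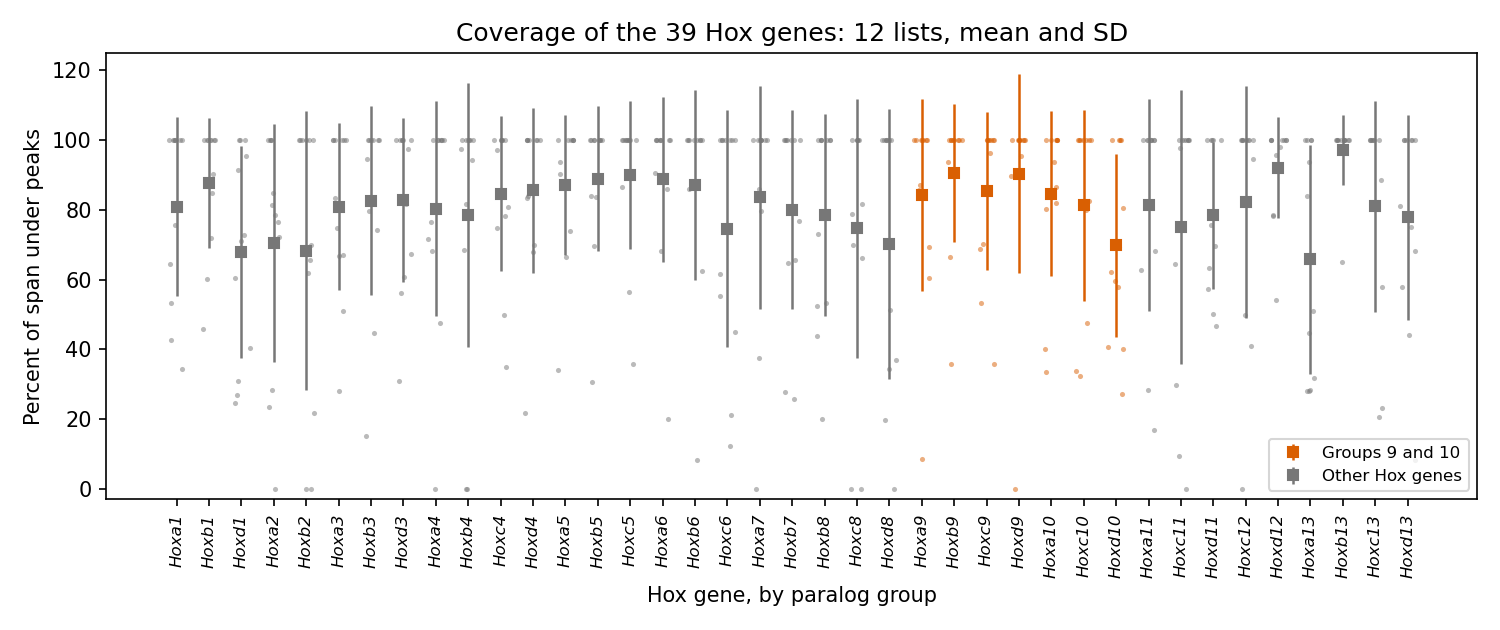
Percent of the extended span under peaks for each of the 39 Hox genes, ordered by paralog group, with small points for the 12 lists and squares and bars for the mean and SD. The bars are symmetric and so pass 100 for many genes, and the 7 genes of groups 9 and 10 (orange) lie between means of 69.8 and 90.6%, inside the range of the others.

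Set against their neighbours in the same cluster, Hoxb9 was covered more than Hoxb8 in 5 lists, equally in 7 and less in 0, with a mean difference of 12.1 ± 18.5 points (SD, n = 12). Hoxd9 was above Hoxd8 in 4 lists and below in 1 (20.2 ± 39.4 points), and Hoxc9 was above Hoxc8 in 4 and below in 2 (10.6 ± 30.4 points). On the other side, Hoxa10 differed from Hoxa11 by 3.31 ± 9.61 points, Hoxc10 from Hoxc11 by 6.23 ± 29.2 points and Hoxd10 from Hoxd11 by -8.61 ± 12.4 points. Each of these mean differences was smaller than its SD over the lists, which describes the lists and is no test of the mean. The spans of Hoxd10 and Hoxd11 overlap, so their values are partly shared. Between the 2 groups, Hoxd9 exceeded Hoxd10 in 7 lists and fell below it in 1 (20.6 ± 26.1 points), Hoxc9 exceeded Hoxc10 in 3 and fell below in 2 (4.01 ± 21.8 points), and Hoxa9 and Hoxa10 differed by -0.39 ± 18.3 points.

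The question of the diet comparison was whether H3K27me3 over these genes differs in headfolds of dams without vitamin C. All 7 genes had lower mean cover without than with vitamin C, but 0 of 7 passed the test, at an unadjusted p under 0.05 or after adjustment. The background was 2.05% of 3460 tested genes at the unadjusted p. For each of the 7 but Hoxd10, all lists of 129 except 129 without vitamin C replicate 2 were tied at 100%. With these ties the test can give no p under 0.05, so these genes could not have passed it. A negative sign was common to 85.1% of the tested genes, whose median difference was -2.76 points. Hoxa10 differed most, with a mean of 74.9 ± 30.3% in the 6 lists without vitamin C and 94.5 ± 8.80% in the 6 with it. Its difference, averaged over the backgrounds, was -19.6 points (exact permutation of diet labels within background, two-sided, 400 relabellings, p = 0.25, Benjamini-Hochberg adjusted p = 0.80). Hoxd9 differed by -17.6 points (exact permutation p = 0.5), Hoxa9 by -16.5 (p = 0.35), Hoxc10 by -14.0 (p = 0.35), Hoxb9 by -13.8 (p = 0.5), Hoxd10 by -11.4 (p = 0.46) and Hoxc9 by -3.82 (p = 0.8). Adjusted p-values were 0.80 to 0.99. The smallest p that 400 relabellings can give is 0.005. After adjustment over 3460 genes no gene can therefore pass unless a large number of genes share that p.

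Within B6 the mean was lower without than with vitamin C for 6 of the 7. Hoxa9 averaged 56.3 ± 45.9% without and 85.03 ± 15.3% with vitamin C (SD, n = 3 each, exact permutation p = 0.5), and Hoxc10 averaged 55.3 ± 38.7% without and 76.7 ± 26.7% with it (exact permutation p = 0.6). Hoxc9 was the exception, with 77.3 ± 36.0% without and 74.5 ± 23.6% with vitamin C (exact permutation p = 1). The smallest p that 3 against 3 can give is 0.1. In 129 all 7 means were lower without vitamin C, and for each gene this came from replicate 2 of that group, since its other 2 lists were at 100% for all 7 genes. Hoxd9 averaged 66.7 ± 57.7% without and 100 ± 0% with vitamin C in 129 (SD, n = 3 each, exact permutation p = 1). Without that library the difference over both backgrounds turned to 1.40 points for Hoxc9 and 0.76 for Hoxd10. Without B6 without vitamin C replicate 1, a library of narrow peaks, the difference was 6.57 points for Hoxc9, -3.10 for Hoxb9, -4.49 for Hoxa9, -8.25 for Hoxc10 and -10.5 for Hoxa10. Without B6 with vitamin C replicate 4 it was 2.55 points for Hoxc9. With B6 without vitamin C replicate 4 left out, Hoxa9 differed by -27.4 points (exact permutation p = 0.05) and Hoxc10 by -25.2 (exact permutation p = 0.1). Without 129 without vitamin C replicate 2, whose list was the second shortest (1388 peaks), the differences of the other 5 genes were -14.3 points for Hoxa9, -10.7 for Hoxc10, -9.58 for Hoxa10, -8.21 for Hoxb9 and -0.97 for Hoxd9.

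The next comparison was of B6 against 129. Cover was lower in B6 for 6 of the 7 genes, but again 0 of 7 passed the test at an unadjusted p under 0.05 or after adjustment. The share of the tested genes was 16.9% at the unadjusted p. Hoxb9 and Hoxd9 had so many lists tied at 100% that this test could give them no p under 0.05. Of all tested genes 90.8% were lower in B6, with a median difference of -5.32 points. Hoxc10 averaged 65.998 ± 32.0% in B6 and 96.7 ± 8.15% in 129 (SD, n = 6 each), a difference of -30.7 points (exact permutation of background labels within diet, two-sided, 400 relabellings, p = 0.11, adjusted p = 0.30). Hoxa9 averaged 70.7 ± 34.4% in B6 and 97.9 ± 5.20% in 129 (-27.2 points, exact permutation p = 0.08, adjusted p = 0.27). With 1 library left out some unadjusted values passed 0.05, and none did after adjustment. The smallest p that relabelling can give limits the adjusted values here as in the diet comparison. Without B6 without vitamin C replicate 4, Hoxa9 was at -38.1 points and Hoxc10 at -41.9 (exact permutation p = 0.02 for both, adjusted p = 0.16). Without B6 with vitamin C replicate 4 they were at -30.9 and -36.5 points (exact permutation p = 0.035 for both). Without B6 without vitamin C replicate 1, Hoxa9 was at -15.2 points (exact permutation p = 0.17).

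Hoxd10 differed by -23.5 points (exact permutation p = 0.15), Hoxc9 by -18.9 (p = 0.17), Hoxa10 by -10.7 (p = 0.42) and Hoxb9 by -7.60 (p = 0.52). From the transcript start after its promoter window, Hoxd10 averaged 80.2 ± 19.6% in B6 and 83.3 ± 40.8% in 129, a difference of -3.15 points (exact permutation p = 0.885). Without 129 without vitamin C replicate 2, where this shorter span was at 0, the difference was -19.8 points from that start (exact permutation p = 0.085) and -35.7 over the whole span (exact permutation p = 0.025, adjusted p = 0.13). Hoxd9 alone was higher in B6, with 97.5 ± 4.29% in B6 and 83.3 ± 40.8% in 129 (14.2 points, exact permutation p = 1), and without 129 without vitamin C replicate 2 its difference was -2.50 points. Without B6 without vitamin C replicate 1, Hoxb9 turned to 3.10 points, and Hoxc9 and Hoxa10 were at -8.48 and -1.59. With peaks under 5 kb apart joined, the differences were -13.8 points for Hoxd10, -11.6 for Hoxc10, -0.64 for Hoxc9 and -0.0014 for Hoxa10. Without the 2 libraries of narrow peaks, both of B6, Hoxa10 stood at 0.57 points and Hoxb9 at 3.41.

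**Figure D5:**
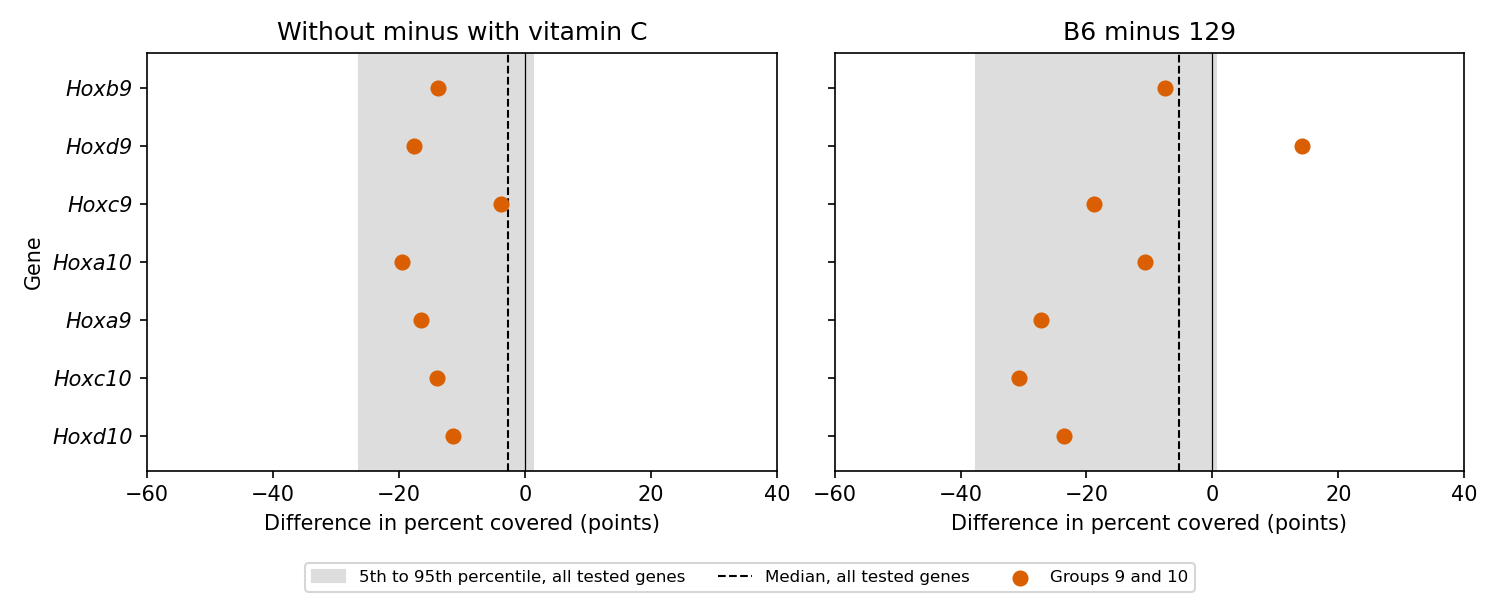
Difference in percent covered, in percentage points, for the 7 genes (orange points) without minus with vitamin C (left) and B6 minus 129 (right). The grey band spans the 5th to 95th percentile of the 3460 tested genes (-26.4 to 1.31 and -37.6 to 0.62 points) and the dashed line is their median, and all points but Hoxd9 on the right lie inside the band.

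The diet difference in 129 minus that in B6 was not separated from 0 for any of the 7, with exact permutation p from 0.6 (Hoxa9, 24.5 points) to 1 (Hoxb9, 5.23 points, and Hoxd10, -0.66 points). These relabellings stand for no effect of diet in either background, and the ties in 129 limit their p as in the diet comparison. The largest value in size was -31.4 points for Hoxd9 (exact permutation p = 0.8), where the diet difference was -33.3 points in 129 and -1.94 in B6.

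Lists of equal length gave nearly the same presence. With each list held to its 748 peaks of largest total signal, the genes kept a peak in 11 or 12 lists each, and mean cover was 61.6% for Hoxd10 to 87.9% for Hoxd9. In the shortest list itself, B6 without vitamin C replicate 2, all 7 genes had a peak, with 33.7 to 100% cover. In 129 without vitamin C replicate 2, equal length left 3 of the 7 (Hoxd9, Hoxa10 and Hoxd10) at 0, and in B6 without vitamin C replicate 1 it left Hoxb9 at 0. Total signal grows with width, so the cut could not remove the broad peaks over these genes, which rank near the top of their lists.

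Genes known to act on the Hox clusters or with Hox proteins were read from a list of 20. Of these, 9 had a peak in at least 10 lists, against 5.93% of all protein-coding genes. They were Cdx1, Cdx2 and Cdx4, caudal factors that switch on posterior Hox genes, Wnt3a, Fgf8 and T of the tail bud, the retinoic acid enzymes Aldh1a2 and Cyp26a1, and the cofactor gene Meis1. Cdx2 was the most completely covered at 90.6% on average, wholly in 9 lists, whereas the Meis1 span was covered by 5.05% and that of Aldh1a2 by 3.92% on average. A further 8 had a peak in 0 lists, among them Meis2 and Meis3, relatives of Meis1, the receptor gene Tgfbr1 and Gmnn, which encodes geminin. By the exact permutation test for diet 0 of the 20 had an unadjusted p under 0.05, against 2.05% of the tested genes, and of those tested 11 were lower without vitamin C and 0 higher.

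Outside the Hox clusters, the profiles over the 12 lists closest to the mean of the 7 genes, of 21859 genes searched, were those of Utf1, Vax1, Gata2, Foxl1 and Phospho1. Their mean absolute differences from that mean were 2.53, 4.06, 4.80, 5.15 and 5.46 points, against 3.99 (Hoxa10) to 15.4 points (Hoxd9) for the 7 genes themselves and a median of 75.4 points over tested genes. These 5 genes were picked by this very distance and the 7 were not. Their small values were thus set by the choice, and do not show them to be more alike than the 7 are. Each of the 5 had a peak in all 12 lists, and their mean cover was 83.95 to 85.04%. The length and peak width of a list are shared by all its genes, and the part of these in the likeness was not tested.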

How the data were processed

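H3K27me3 was profiled by CUT&Tag in 12 single headfolds, 3 for each background and diet. The authors deposited 1 peak list per library, called per sample, with position, total signal and maximum signal of each peak. These signal values carry no visible scaling to a common depth and served only for ranks and cutoffs inside each list. The tools were cutadapt, Bowtie2, Picard and SEACR, and the build was mm10, per the submitters' processing notes, with versions and settings not given in the sources used here, nor whether IgG libraries set the calls. The 4 IgG samples and 2 further B6 samples were not analysed here. Read depth is unknown, so cover has no interval and can follow depth and peak width.

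Genes were placed by the RefSeq table of GRCm38.p6 (1-based, without strand). A gene was present with at least 1 bp of a peak within its span plus 1 kb at each end. Percent covered was compared by two-sided exact permutation for every protein-coding gene with a peak in at least 2 lists (3460), adjusted after Benjamini-Hochberg over all of them, with a threshold of 0.05. The tests were tried on simulated normal values without ties or a ceiling, unlike the cover values here. P-values measure the spread between embryos, and embryos of 1 pregnancy count as separate. The members, gene lists and alternatives were chosen with earlier results of these data known. Named are the 7 genes, Hox genes of groups 8 and 11 beside them, the first and last Hox genes by mean cover (chosen after their values were seen), genes at the maxima of shared peaks, the fixed lists and the 5 genes of most alike profile. Some members of these lists are not reported here by name. Alternatives were windows of 0 and 2.5 kb, equal lists, peaks no weaker than the median maximum of their own list, peaks of at least 1 kb, peaks under 5 kb apart joined, at least 50% cover for presence, ranks, permutation within sex, averaged pregnancies, genes in any list, and omission of each library. Added after the lists had been seen were omission of the 2 libraries with median widths under 2 kb, of the 2 lists under 1500 peaks, and the shorter Hoxd10 span, alone and without 129 without vitamin C replicate 2. Python 3.11.15, NumPy 2.4.6, pandas 2.3.3 and Matplotlib 3.10.9 were used.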

Additional observations from a re-analysis of the deposited data

How the results depend on the processing

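No paired analysis was possible because replicate numbers were given in the order of the samples and pair no embryos. In every alternative run, 0 of the 7 genes passed an adjusted p of 0.05 for diet or background (exact permutation test, lowest adjusted p 0.13). Hoxa9, Hoxc10 and Hoxd10 had an unadjusted background p under 0.05 without certain single libraries. In the main tests 0 of all tested genes had an adjusted p under 0.05. The smallest p that relabelling can give limits all these adjusted values, so they do not show that differences are absent. The share of lists with a peak stayed within 1.5 times its main value for each of the 7 genes in all alternatives, and median cover moved by more than its SD only for Hoxd10, to 100% with peaks under 5 kb apart joined. The background difference of Hoxd9 became -0.47 with a 2.5 kb window, -2.50 with peaks at or above the median maximum signal and -3.37 without the 2 shortest lists, in points, and -0.67 in ranks of the 12 lists. Without the 2 libraries of narrow peaks, the diet difference of Hoxc9 was 1.28 points and the background differences of Hoxb9 and Hoxa10 were 3.41 and 0.57. With 1 library left out at a time, the diet difference ranged from -9.49 to 6.57 points for Hoxc9, -17.7 to 0.76 for Hoxd10, -27.4 to -4.49 for Hoxa9, -19.2 to -3.10 for Hoxb9, -26.0 to -0.97 for Hoxd9, -25.6 to -9.58 for Hoxa10 and -25.2 to -8.20 for Hoxc10. The background difference ranged from -2.50 to 22.5 for Hoxd9, -13.2 to 3.10 for Hoxb9, -38.1 to -15.2 for Hoxa9, -25.2 to -8.48 for Hoxc9, -20.7 to -1.59 for Hoxa10, -41.9 to -23.4 for Hoxc10 and -35.7 to -17.5 for Hoxd10. From the later start and without 129 without vitamin C replicate 2, the diet difference of Hoxd10 was 0.89 points. The cause was not tested.

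Of all 3460 tested genes, 71 had an unadjusted diet p under 0.05, and this became 26 with equal lists and 16 without the 2 shortest. The 584 genes with such a background p became 297 with equal lists, 277 with peaks at or above the median maximum signal and 167 without the 2 libraries of narrow peaks. With 1 library left out the counts ranged from 23 (without B6 without vitamin C replicate 2) to 216 (without B6 without vitamin C replicate 4) for diet. For background they ranged from 297 (without 129 without vitamin C replicate 1) to 1120 (without 129 without vitamin C replicate 2). Unknown depth limits every comparison between lists.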
